A study of Homo sapiens with 24 samples.

Results

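The genes described are 9 surface molecules by which leukemic stem and progenitor cells are recognised or held in the bone marrow: CD34, KIT, CD33, CD38, IL3RA, PROM1, CD44, CXCR4 and ITGA4. They were taken by symbol from the deposited table of read counts, which lists 23354 genes. RNA-seq was carried out on MV4-11 and KG-1a, established human lines of acute myeloid leukemia (AML), so that AML is represented by 2 culture models. Cells were left untreated or were given 8-chloro-adenosine (8CA) or 8-amino-adenosine (8AA), adenosine analogs modified on the same carbon of the purine ring, by chlorine in 8CA and by an amino group in 8AA, at 1 µM for 8 h or 24 h. There were 2 libraries per line, drug and time, named replicates A and B, which gave 24 libraries, and the labels give the hours of the untreated cells in their titles alone. Nothing in the labels says that replicates were separate cultures, so the p-values measure the spread between these samples, which may be technical.

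CD34 and PROM1 (CD133) are glycoproteins of immature blood cells, and their loss accompanies differentiation. KIT is the receptor for stem cell factor and IL3RA (CD123) the ligand-binding chain of the interleukin-3 receptor, both of which carry growth signals into progenitors, whereas CD33 is a sialic acid-binding receptor of the myeloid lineage and CD38 an enzyme that consumes NAD and is low on the most immature cells. CD44 binds hyaluronan, CXCR4 is the receptor for the chemokine CXCL12 made by marrow stroma, and ITGA4 pairs with ITGB1 to form the integrin VLA-4, which binds VCAM1, and these 3 anchor blood cells in their niche.

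The libraries held 18633963 to 24520078 counted reads. In MV4-11 the myeloid markers LYZ (57849 to 78135 counts), SPI1 (5045 to 6376) and CSF1R (708 to 1468) were present and the T cell genes CD3D, CD3E and CD3G were at 0 in its 12 libraries. The other monocytic markers in MV4-11 were FCGR1A at 315 to 508 counts, ITGAM at 31 to 89 and CD14 at 0 to 5. KG-1a had little SPI1 (123 to 161 counts) and LYZ (11 to 30) but held CD3D at 3650 to 6390 counts and CD3E at 441 to 1958, with CD3G at 7 to 24. Of its other haematopoietic and myeloid markers, PTPRC (CD45) was at 13917 to 18067 counts and CSF3R at 1022 to 2086, but MPO was low, at 2 to 54. Of the monocytic list ITGAM was at 159 to 317 in KG-1a, while CD14 (3 to 14), FCGR1A (5 to 16) and CSF1R (0 to 4) were low. The myeloid markers of KG-1a were thus mixed and stood beside T cell genes. The erythroid, platelet, fibroblast and epithelial lists had 2 or 3 of 3 markers at 0 in every library of each line, and the B cell and endothelial lists 0 or 1 of 3. The platelet gene ITGA2B was at 1124 to 1733 counts in KG-1a. The pair of KG-1a 8AA 24 h libraries stood apart from each other, with a chi-square per degree of freedom of 12.3 over genes against 1.43 to 5.20 in the other 11 pairs. RNA was measured in bulk, so a lower value can mean fewer cells with a transcript or less of it per cell, and these cannot be told apart. Counts were scaled between libraries, so rises and falls are relative to the other transcripts, and total RNA per cell cannot be read from them.

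IL3RA was listed at 0 in all 24 libraries. The table places it on chromosome Y, in the region that X and Y share. Of 17 listed genes in the first 2500000 bases of X or Y, 12 were at 0 and the highest total over the 24 libraries was 19 reads, so IL3RA is only listed at 0 and no level is given. The other 8 genes are described in KG-1a, and 6 of them in MV4-11, where CD34 (0 to 4 counts per library) and PROM1 (0 to 1) were too low to be tested.

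The promoter letters of 4 genes, chosen after their values were seen, are shown, because CD34, KIT and CXCR4 rose together in KG-1a under 8AA and CD44 rose in MV4-11 under both drugs. PROM1 also rose in KG-1a under 8AA at 24 h, as did CD33 and CD38 in MV4-11 under both drugs, but their letters are not shown. The letters shown are the 250 bases before the RefSeq start site in GRCh38.p14, read 5′ to 3′ on the gene's strand. These lie at chr1:207911126-207911375 on the minus strand for CD34, at chr4:54657707-54657956 on the plus strand for KIT, at chr11:35138921-35139170 on the plus strand for CD44 and at chr2:136118150-136118399 on the minus strand for CXCR4. Capitals mark GC boxes, the letters GGGCGG on either strand.
CD34: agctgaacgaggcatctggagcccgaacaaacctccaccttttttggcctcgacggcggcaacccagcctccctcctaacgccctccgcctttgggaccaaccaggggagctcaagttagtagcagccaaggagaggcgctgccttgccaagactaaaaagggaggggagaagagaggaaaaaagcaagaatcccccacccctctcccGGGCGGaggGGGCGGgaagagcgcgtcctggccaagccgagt
KIT: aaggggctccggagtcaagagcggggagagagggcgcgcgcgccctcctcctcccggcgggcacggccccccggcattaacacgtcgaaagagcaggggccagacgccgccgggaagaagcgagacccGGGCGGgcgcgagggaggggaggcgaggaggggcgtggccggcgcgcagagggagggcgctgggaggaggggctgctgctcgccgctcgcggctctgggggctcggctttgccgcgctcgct
CD44: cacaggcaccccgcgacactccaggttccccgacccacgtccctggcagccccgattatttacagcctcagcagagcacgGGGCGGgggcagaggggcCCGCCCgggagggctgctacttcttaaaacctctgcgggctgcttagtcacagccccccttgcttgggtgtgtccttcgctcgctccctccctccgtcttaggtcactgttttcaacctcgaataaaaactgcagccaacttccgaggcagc
CXCR4: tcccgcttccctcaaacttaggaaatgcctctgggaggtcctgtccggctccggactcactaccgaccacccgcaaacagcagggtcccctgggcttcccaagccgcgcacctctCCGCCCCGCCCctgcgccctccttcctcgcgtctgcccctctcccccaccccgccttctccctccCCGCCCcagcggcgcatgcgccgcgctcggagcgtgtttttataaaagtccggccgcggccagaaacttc
CD34 and CD44 held 2 such matches each, KIT 1 and CXCR4 3, of which neighbours in CXCR4 share 1 base. For 7 of the 9 genes, including those shown, the window ended at the RefSeq gene start. CD33 and ITGA4 had no entry there, and their only listed promoter was used. Of the 9 genes, 5 held a GC box, CD33 among them, as did 42.6% of 35116 promoters of this length. Among the genes not shown, CD33 held 1 match and PROM1, CD38, IL3RA and ITGA4 held 0. The RUNX core TGTGGT (11.0% of promoters), the GATA core AGATAA (9.17%), the E-box CACGTG (6.34%) and the AP-1 letters TGACTCA (4.20%) were in none of the 9 windows, and the ETS core GGAA was in all 9, as in 92.7% of promoters. These matches describe the letters only.

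The untreated lines differed widely in these genes. KG-1a carried CD34, PROM1 and most CD38, and MV4-11 carried CD33 and most CXCR4, while CD44 and ITGA4 were abundant in both. Per kilobase of exons, in CPM (normalised read counts, scaled to a common library size), the untreated 24 h level in KG-1a was 163 ± 4.97 (SD, n = 2) for ITGA4, the integrin chain, 115 ± 1.43 for CD34 and 62.2 ± 0.947 for CD44. CD38 (4.80 ± 0.271), CXCR4 (2.32 ± 0.246), KIT (0.690 ± 0.046), PROM1 (0.512 ± 0.035) and CD33 (0.122 ± 0.081) followed. In MV4-11 the same order ran ITGA4 at 60.4 ± 0.125, CXCR4 at 47.5 ± 0.928, CD44 at 44.8 ± 0.167, CD33 at 19.6 ± 1.58, KIT at 0.524 ± 0.041 and CD38 at 0.350 ± 0.080. Neighbours in these orders lay further apart than their SDs, but n = 2 cannot rank them by an exact test.

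**Figure D1:**
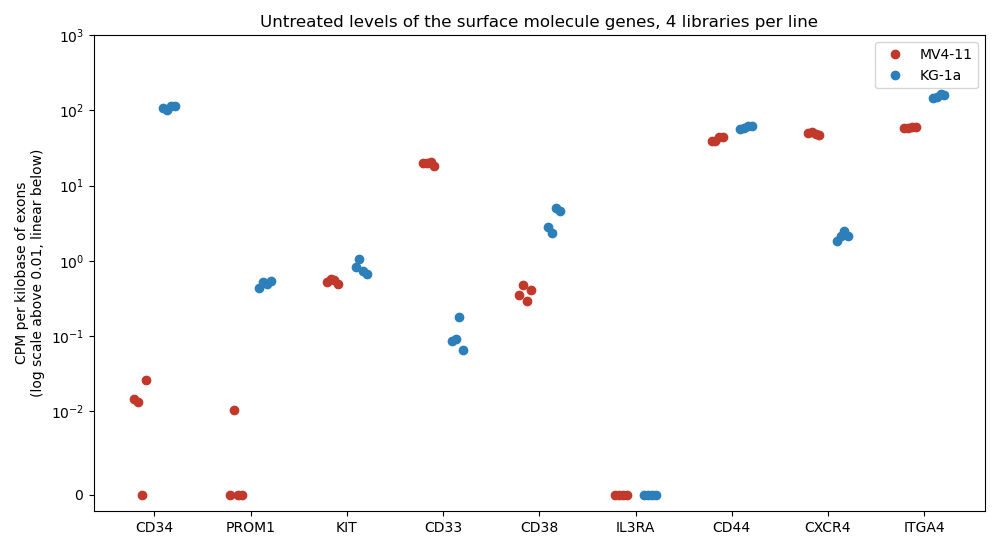
Untreated levels of the 9 genes in CPM per kilobase of exons, scaled over all 24 libraries, with 1 point per library (2 at 8 h and 2 at 24 h in each line). CD34 stood above 100 in each KG-1a library and below 0.03 in each MV4-11 library, CD33 and CXCR4 were higher in MV4-11, and IL3RA is listed at 0.

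Each of the 8 genes tested passed the test between the untreated lines at 8 h and 7 of 8 at 24 h, where 82.2% and 82.0% of 14055 genes did (edgeR's quasi-likelihood test over all 24 libraries, Benjamini-Hochberg adjusted p under 0.05). CD34 and PROM1 entered that fit through KG-1a alone, so they had to differ and the count is a description. CD34 was counted 2 times in the MV4-11 pair and 14788 times in the KG-1a pair at 8 h, a depth-corrected ratio of 7469 with a counting interval of 2067 to 61681. At 24 h it was 2 against 16340 counts, a ratio of 8674 (2401 to 71626). PROM1 was at 1 against 87 counts at 8 h, a ratio of 87.9 (15.4 to 3511), and at 0 against 93 at 24 h, so at least 32.9-fold higher in KG-1a by a floor of 3 counts over the MV4-11 pair. The intervals cover counting error only.

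CD33 ran the other way and was 157-fold higher in MV4-11 at 24 h (log2 difference 7.29, SE 0.134, edgeR adjusted p = 6.66e-24). The size of that fold rests on 21 and 7 counts in KG-1a replicates A and B, and the log2 difference was 8.23 without replicate A and 6.76 without replicate B. CXCR4 was 20.4-fold higher in MV4-11 (4.35, SE 0.087, edgeR adjusted p = 2.97e-23). ITGA4 reached 0.371 of the KG-1a level in MV4-11, CD44 0.720 and CD38 0.0738, each past the test at both times. KIT was lower in MV4-11 at 8 h (log2 difference -0.78, SE 0.179, edgeR adjusted p = 0.00036), and at 24 h the difference of -0.40 had an edgeR adjusted p of 0.0558.

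After 24 h in MV4-11, transcripts of KIT, CD33, CD38 and CD44 rose under both drugs. KIT rose 1.70-fold under 8CA and 2.14-fold under 8AA, and CD44 rose 1.53-fold and 1.27-fold. Under 8CA, CXCR4 and ITGA4 also fell, to 0.886 and 0.874 of the untreated level. This made 4 genes higher and 2 lower of 6 tested under 8CA, where 21.2% of 12800 genes were called higher and 22.7% lower, and 4 higher and 0 lower under 8AA, where the shares were 13.9% and 15.3%. The median log2 fold change of the 6 genes was 0.44 under 8CA and 0.29 under 8AA, with medians over all genes of 0.0022 and 0.0032. Both drugs were set against the same untreated libraries.

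KIT was at 2.76 and 2.48 CPM in untreated MV4-11 replicates A and B at 24 h, at 4.87 and 4.06 under 8CA and at 4.99 and 6.30 under 8AA. No treated library overlapped the untreated ones. The log2 fold change was 0.77 under 8CA (SE 0.181, edgeR adjusted p = 0.00284) and 1.10 under 8AA (SE 0.177, edgeR adjusted p = 0.00027). CD44, the hyaluronan receptor, was at 289 and 291 CPM untreated, at 445 and 442 under 8CA and at 362 and 374 under 8AA. The 3 groups were separate, with 8CA highest. Its log2 fold change was 0.61 under 8CA (SE 0.039, edgeR adjusted p = 1.65e-08) and 0.35 under 8AA (SE 0.039, edgeR adjusted p = 1.6e-05). All 4 of these calls held when any 1 library was left out.

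The other MV4-11 calls at 24 h were smaller or rested on few reads. CD33 was at 114 and 102 CPM untreated, 135 and 125 under 8CA and 126 and 127 under 8AA, log2 fold changes of 0.27 (edgeR adjusted p = 0.000866) and 0.23 (edgeR adjusted p = 0.00559). The groups did not overlap, but without untreated replicate B the 8AA change was 0.14 (edgeR adjusted p = 0.131). CD38 was counted 9 and 13 times untreated, 30 and 31 times under 8CA and 28 and 17 times under 8AA. It rose by a log2 fold change of 1.31 under 8CA (SE 0.331, edgeR adjusted p = 0.00454) and 1.01 under 8AA (SE 0.352, edgeR adjusted p = 0.0401). DESeq2 called neither (adjusted p = 0.0503 and 0.207). The 8CA call was lost without untreated replicate A (edgeR adjusted p = 0.050004), and the 8AA call without 8AA replicate A (0.343), untreated replicate A (0.206) or untreated replicate B (0.0798), each an edgeR adjusted p, or with no filter on low counts (0.0501).

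CXCR4, the CXCL12 receptor, was at 103 and 101 CPM untreated and at 90.7 and 90.4 under 8CA, a log2 fold change of -0.17 (SE 0.055, edgeR adjusted p = 0.0176). ITGA4 was at 387 and 389 CPM untreated and at 349.8 and 328 under 8CA, a log2 fold change of -0.19 (SE 0.054, edgeR adjusted p = 0.00899). Both falls are thin. The CXCR4 call was lost without 8CA replicate A (edgeR adjusted p = 0.0680), 8CA replicate B (0.0691) or untreated replicate A (0.105), and that of ITGA4 without 8CA replicate B (0.111), untreated replicate A (0.0541) or untreated replicate B (0.0563). With scaling by library size alone neither passed, at edgeR adjusted p = 0.0584 and 0.0611, and with upper-quartile scaling CXCR4 did not (0.0502). Under 8AA neither gene was called, with log2 fold changes of 0.05 (95% interval -0.06 to 0.17) for CXCR4 and 0.01 (-0.11 to 0.13) for ITGA4.

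Lineage markers moved in the same MV4-11 libraries. Under 8CA at 24 h, of the 5 haematopoietic and myeloid markers MPO (-0.64), LYZ (-0.23) and SPI1 (-0.18) fell and PTPRC rose (0.46), and of the 3 monocytic markers tested CSF1R (-0.28) and FCGR1A (-0.25) fell. Of the other marker lists PECAM1 fell (-0.27), and KRT8 (0.75) and CD79A (1.36, at 4 to 14 counts) rose. Under 8AA, PTPRC (0.34), CSF3R (0.58), CSF1R (0.24), ITGAM (0.74) and the platelet gene ITGA2B (0.86, at 14 to 63 counts) rose and FCGR1A fell (-0.35), all log2 fold changes called by edgeR. The summed level of the 5 haematopoietic and myeloid markers was 3309 to 3543 CPM untreated, 2987 to 2992 under 8CA and 3198 to 3291 under 8AA, and that of the 4 monocytic markers was 71.8 to 73.5, 58.7 to 61.7 and 76.3 to 79.4 CPM. The part of these markers in the changes of the 6 genes was not tested.

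At 8 h in MV4-11, CD44 rose under 8CA, and KIT and CXCR4 rose under 8AA. That is 1 of 6 genes higher and 0 lower where 4.58% and 5.77% of all genes were called under 8CA, and 2 higher and 0 lower where 13.6% and 15.6% were under 8AA. CD44 was at 256 and 252 CPM untreated and 289.8 and 289.5 under 8CA (log2 fold change 0.19, SE 0.040, edgeR adjusted p = 0.00713), a call lost without untreated replicate B (0.17, edgeR adjusted p = 0.0668). KIT went from 2.61 and 2.86 CPM to 5.11 and 4.29 under 8AA (log2 fold change 0.77, SE 0.182, edgeR adjusted p = 0.00485). CXCR4 went from 108 and 112 to 124 and 133 (0.22, SE 0.054, edgeR adjusted p = 0.00585). For each of these called genes the treated libraries were above the untreated ones, which describes the calls and is no further support. The CXCR4 call was lost without 8AA replicate B (edgeR adjusted p = 0.0682) or untreated replicate A (0.0520). ITGA4 was at 371.3 and 371.2 CPM untreated and at 339 and 321 under 8CA, a log2 fold change of -0.17 that missed the threshold (edgeR adjusted p = 0.0604). It passed with the replicate block (edgeR adjusted p = 0.00914), DESeq2 size factors (0.0468), no filter on low counts (0.00687) and the DESeq2 test (0.0384).

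**Figure D2:**
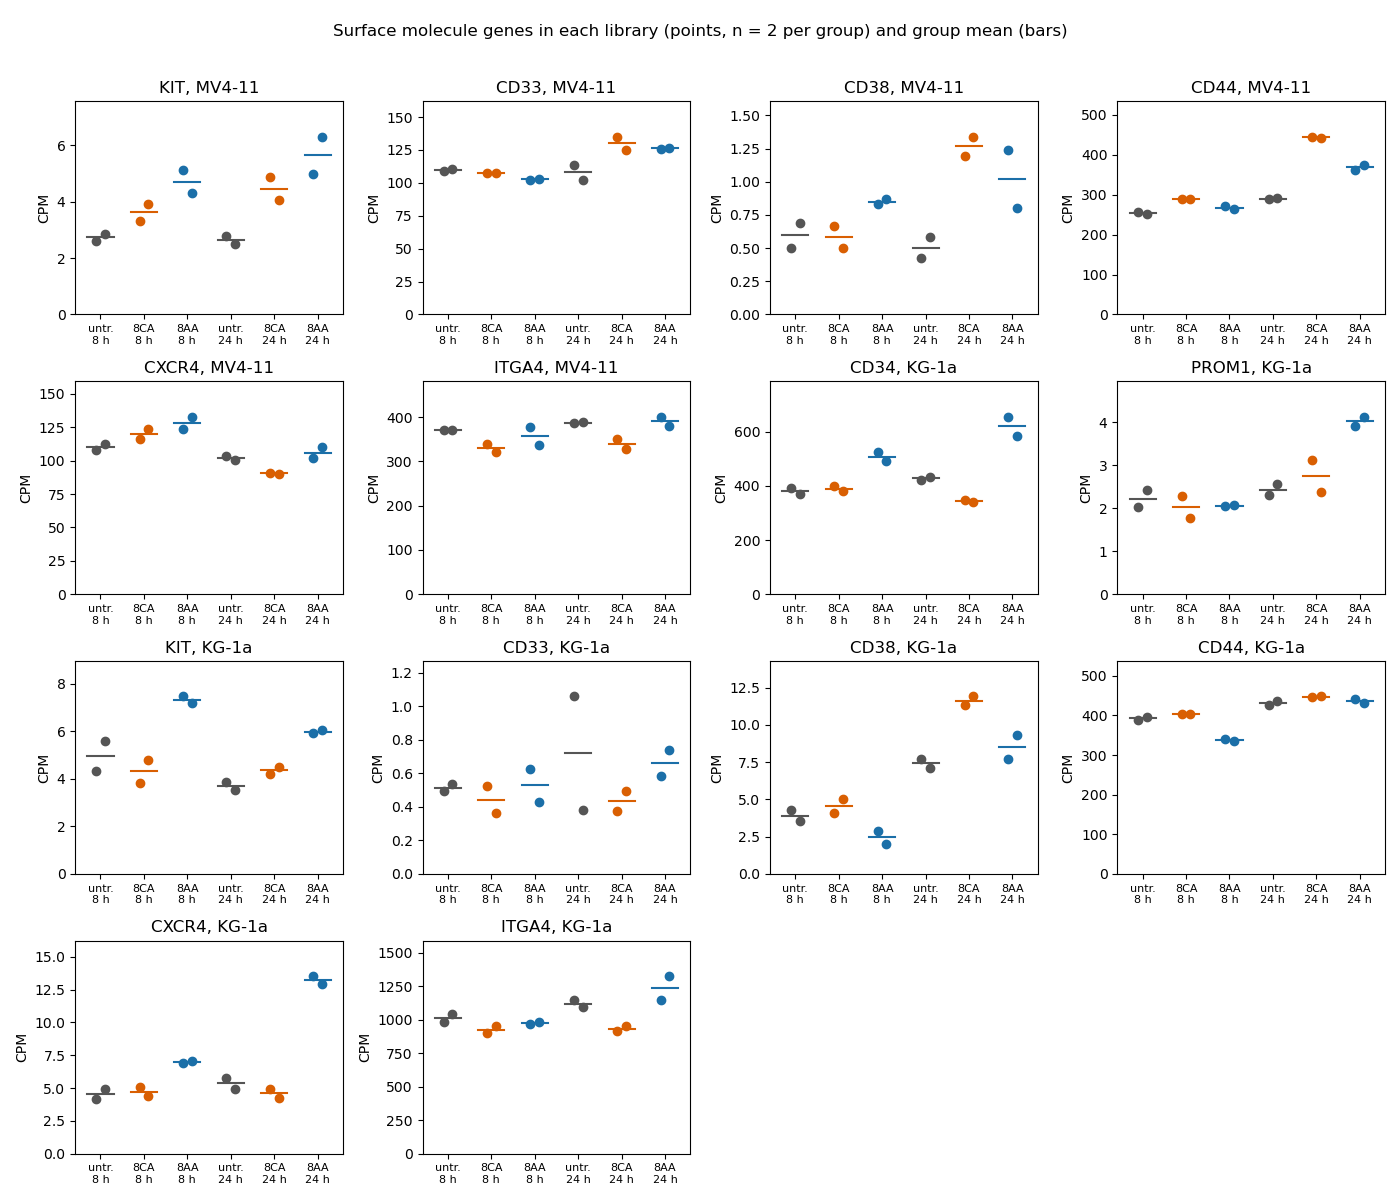
CPM of each tested gene in each library, by drug and time, for MV4-11 (6 genes) and KG-1a (8 genes), with points for libraries, bars for group means and linear axes from 0. In MV4-11 CD44 was highest under 8CA at 24 h (445 and 442 CPM), and in KG-1a CXCR4 and CD34 were highest under 8AA at 24 h.

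In KG-1a the 2 drugs gave different patterns at 24 h. Under 8AA, CXCR4, PROM1, KIT and CD34 rose and no gene fell, with CXCR4 up 2.47-fold. Under 8CA, CD34 and ITGA4 fell and CD38 rose. This is 4 genes higher and 0 lower of 8 under 8AA, where 25.4% and 26.6% of 12711 genes were called, and 1 higher and 2 lower under 8CA, where 23.4% and 24.0% were. The median log2 fold change of the 8 genes was 0.36 under 8AA and -0.08 under 8CA, with all-gene medians of 0.013 and 0.0065. The drugs again shared their untreated libraries.

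CXCR4 was at 5.75 and 4.95 CPM in untreated KG-1a at 24 h, at 13.5 and 12.9 under 8AA and at 4.95 and 4.27 under 8CA. Both 8AA libraries stood far above the other 4, among which the higher 8CA value (4.946) lay just below the lower untreated one (4.949). The log2 fold change was 1.30 under 8AA (SE 0.120, edgeR adjusted p = 3.22e-07) and -0.22 under 8CA (95% interval -0.52 to 0.09, edgeR adjusted p = 0.241). CD34 was at 424 and 432 CPM untreated, 656 and 584 under 8AA and 349 and 339.7 under 8CA. The groups were separate, with 8AA highest and 8CA lowest. CD34 rose by 0.54 on the log2 scale under 8AA (SE 0.056, edgeR adjusted p = 1.1e-06) and fell by 0.31 under 8CA (SE 0.056, edgeR adjusted p = 0.000307).

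KIT was at 3.88 and 3.54 CPM untreated, 5.93 and 6.06 under 8AA and 4.20 and 4.52 under 8CA. It rose under 8AA (log2 fold change 0.69, SE 0.155, edgeR adjusted p = 0.00155) and was at 0.23 under 8CA (edgeR adjusted p = 0.276). PROM1 was at 2.32 and 2.56 CPM untreated and 3.92 and 4.14 under 8AA, a rise of 0.72 (SE 0.185, edgeR adjusted p = 0.00386), from 46 and 47 counts to 94 and 84. The treated pairs did not overlap the untreated ones for either gene. These 8AA calls of CXCR4, CD34, KIT and PROM1 held without any 1 library, including each of the 8AA 24 h libraries that stood apart.

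CD38 rose under 8CA from 7.71 and 7.12 to 11.3 and 11.9 CPM (log2 fold change 0.65, SE 0.140, edgeR adjusted p = 0.0014). ITGA4 fell from 1145 and 1097 to 913 and 954 (-0.26, SE 0.059, edgeR adjusted p = 0.00169). Both 8CA pairs were outside the untreated range, and neither call was lost without any 1 library. Under 8AA, ITGA4 stood at 1146 and 1326 CPM, a log2 fold change of 0.14 (edgeR adjusted p = 0.0561), which became 0.24 (edgeR adjusted p = 8.66e-06) without 8AA replicate A. It also passed, as a rise, with the replicate block (0.14, edgeR adjusted p = 0.0277), with scaling by library size (0.24, 0.00464) or upper quartile (0.21, 0.00603), and with no filter (0.0118) or the stricter filter (0.0421). CD44 stayed between 427 and 448 CPM across all 3 groups, with log2 fold changes of 0.05 under 8CA (95% interval -0.03 to 0.14) and 0.02 under 8AA (-0.07 to 0.10). Its change under 8AA ran from -0.01 to 0.11 over 13 alternatives, 1 of which called it. CD33 was at 7 to 21 counts and passed no test in KG-1a under either drug, though without untreated replicate B its 8CA change was -1.28 (edgeR adjusted p = 0.0352).

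Lineage markers moved in the same KG-1a libraries too. Under 8AA the T cell gene CD3E rose by 1.00 on the log2 scale (edgeR adjusted p = 1.81e-07), as did the platelet gene ITGA2B by 0.14 (0.0478). Of the myeloid list MPO rose by 2.37 (edgeR adjusted p = 9.4e-05), LYZ by 0.92 (0.0324) and CSF3R by 0.16 (0.0421), with MPO at 2 to 54 and LYZ at 11 to 30 counts in KG-1a. Under 8CA, CD3D (-0.50), ITGAM (-0.35), ITGA2B (-0.18) and PECAM1 (-0.60) fell by edgeR. The summed level of the 3 T cell markers was 298 to 306 CPM untreated, 286 to 349.5 under 8AA and 215 to 224 under 8CA. That of the 5 haematopoietic and myeloid markers was 856 to 866, 851 to 908 and 876 to 904 CPM. CD3D and CD3E were present in untreated KG-1a too, and the part of these markers in the changes of the 8 genes was not tested.

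At 8 h no gene was called in KG-1a under 8CA, with edgeR, where 0.700% of all genes were called higher and 0.181% lower. DESeq2 also called 0. Of the 8, 1, ITGA4, was at an unadjusted edgeR p under 0.05, for which the share of all genes is not given. Under 8AA, CD34, KIT and CXCR4 rose and CD38 and CD44 fell, 3 higher and 2 lower of 8 where 16.7% and 18.0% were called. CD34 went from 393 and 369.6 CPM to 524 and 491 (log2 fold change 0.41, SE 0.056, edgeR adjusted p = 4.42e-05). CXCR4 went from 4.17 and 4.90 to 6.94 and 7.07 (0.62, SE 0.136, edgeR adjusted p = 0.00239). Both were above the untreated pair in each treated library. KIT went from 4.34 and 5.58 to 7.48 and 7.20 CPM (0.56, SE 0.140, edgeR adjusted p = 0.006), a call lost without untreated replicate A (0.40, edgeR adjusted p = 0.0759).

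CD44 fell from 389 and 396 to 341 and 336 CPM under 8AA at 8 h (-0.21, SE 0.039, edgeR adjusted p = 0.000595). CD38 fell from 4.28 and 3.54 to 2.91 and 1.98 CPM (-0.67, SE 0.208, edgeR adjusted p = 0.0201), a call lost without 8AA replicate B (-0.42, edgeR adjusted p = 0.210) or untreated replicate A (-0.53, edgeR adjusted p = 0.144). Neither pair overlapped its untreated pair. CD44 was thus lower under 8AA at 8 h and not called at 24 h in KG-1a.

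**Figure D3:**
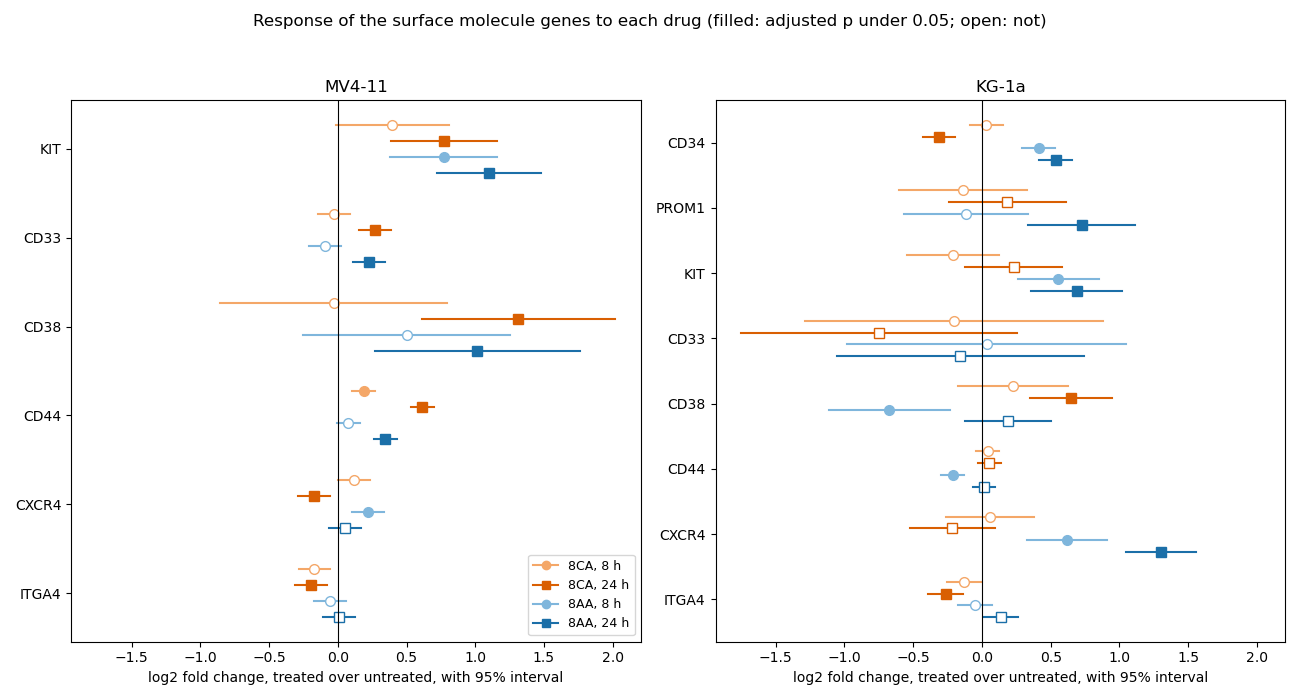
Log2 fold change of each tested gene, treated over untreated, with 95% intervals, for 8CA and 8AA at 8 h and 24 h in MV4-11 and KG-1a, filled where the adjusted p was under 0.05. CXCR4 in KG-1a at 24 h (1.30 under 8AA) and CD38 in MV4-11 at 24 h (1.31 under 8CA) are the highest points, and CD38 has the wider interval.

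8CA and 8AA were both used at 1 µM for 8 h or 24 h and differ in 1 substituent, chlorine against an amino group, so the 1 pair of analogs was compared in each line at each time. The clearest difference was in KG-1a at 24 h. There 6 of 8 genes differed between the drugs where 42.0% of 12711 genes did, and CXCR4, CD34, PROM1, KIT and ITGA4 were higher and CD38 lower under 8AA. At 8 h in KG-1a 5 of 8 genes differed (30.4% of all genes). In MV4-11, 3 of 6 genes differed at 24 h (21.2%) and 0 at 8 h with edgeR (6.66%) or DESeq2. There KIT and CD44, 2 of 6, were at an unadjusted edgeR p under 0.05. The share of all genes at that unadjusted p is not given.

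CXCR4 was 2.86-fold higher under 8AA than under 8CA in KG-1a at 24 h (log2 difference 1.52, SE 0.121, edgeR adjusted p = 1.16e-07), 13.5 and 12.9 CPM against 4.95 and 4.27. CD34 was 1.80-fold higher (0.85, SE 0.056, edgeR adjusted p = 1.21e-08), and ITGA4 1.32-fold higher (0.41, SE 0.059, edgeR adjusted p = 5.6e-05), at 1146 and 1326 CPM against 913 and 954. None of these 3 pairs overlapped, and each call held without any 1 library. PROM1 (0.54), KIT (0.46) and CD38 (-0.46) also differed by edgeR (adjusted p = 0.0219, 0.0200 and 0.0122). DESeq2 gave adjusted p = 0.148, 0.102 and 0.0617 for them. PROM1 was lost without 8AA replicate B (edgeR adjusted p = 0.0645) or 8CA replicate B (0.204), KIT without 8CA replicate A (0.122) or B (0.0541), and CD38 without 8AA replicate A (0.0829) or 8CA replicate B (0.0746). The number of differing genes went from 6 to 3 without 8CA replicate B.

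At 8 h in KG-1a, KIT was 1.71-fold higher under 8AA (log2 difference 0.77, SE 0.143, edgeR adjusted p = 0.000865) and CD34 1.30-fold higher (0.38, SE 0.056, edgeR adjusted p = 0.00012). CXCR4 was 1.48-fold higher (0.56, edgeR adjusted p = 0.00499), lost without 8CA replicate B (0.46, edgeR adjusted p = 0.0649). CD44 was lower under 8AA (-0.26, SE 0.039, edgeR adjusted p = 0.000173), as was CD38 (-0.90, SE 0.200, edgeR adjusted p = 0.00322), lost without 8AA replicate B (-0.64, edgeR adjusted p = 0.0581). ITGA4 differed by 0.08 (95% interval -0.05 to 0.20).

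In MV4-11 at 24 h CD44 was lower under 8AA than under 8CA, at 362 and 374 against 445 and 442 CPM (log2 difference -0.27, SE 0.039, edgeR adjusted p = 0.000192). CXCR4 was higher by 0.23 (SE 0.055, edgeR adjusted p = 0.0077) and ITGA4 by 0.20 (SE 0.054, edgeR adjusted p = 0.0144). CXCR4 was lost without 8AA replicate B (edgeR adjusted p = 0.113) or 8CA replicate A (0.0586), and ITGA4 without 8AA replicate A (0.144) or 8CA replicate B (0.162). KIT was not called (0.33, 95% interval -0.0014 to 0.66), nor were CD33 (-0.04, -0.16 to 0.07) and CD38 (-0.30, -0.90 to 0.30). These intervals leave room for differences of the size seen in KG-1a for KIT and CD38, so they do not show that the analogs act alike.

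**Figure D4:**
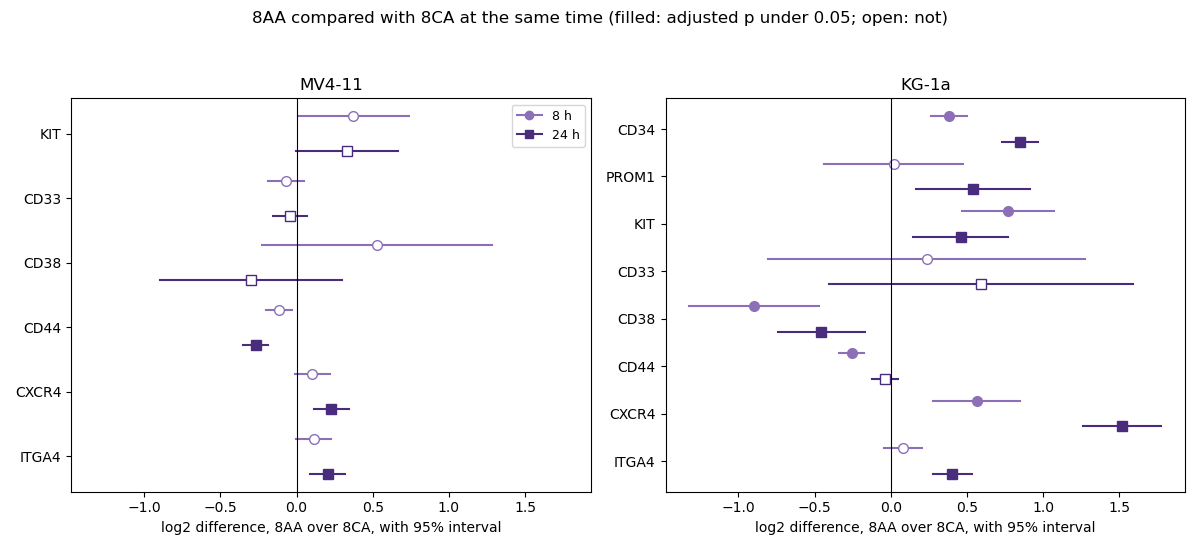
Log2 difference between 8AA and 8CA at the same time, with 95% intervals, for each tested gene in MV4-11 and KG-1a, filled where the adjusted p was under 0.05. CXCR4 in KG-1a at 24 h (1.52) lies furthest from 0. On the other side CD38 in KG-1a at 8 h (-0.90) lies furthest, and CD44 in MV4-11 at 24 h (-0.27) lies nearer.

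Responses of the 6 genes tested in both lines were compared directly by the interaction of line and drug. CD44 and CXCR4 were the genes that differed. Under 8AA at 24 h CXCR4 rose by 1.30 in KG-1a while it was at 0.05 in MV4-11, a difference (MV4-11 minus KG-1a) of -1.23 (SE 0.126, edgeR adjusted p = 2.03e-07). CD44 responded more in MV4-11 under 8CA at 24 h (0.58, SE 0.051, edgeR adjusted p = 3.4e-08), under 8AA at 24 h (0.35, edgeR adjusted p = 1.96e-05) and under 8AA at 8 h (0.33, edgeR adjusted p = 0.00016). These 4 differences held without any 1 library. Of the 6 genes, 1 differed under 8CA at 24 h (11.2% of 14055 genes), 2 under 8AA at 24 h (22.3%) and 1 under 8AA at 8 h (11.1%). Under 8CA at 8 h 0 differed with edgeR (1.15%) or DESeq2. There KIT and CD44, 2 of 6, were at an unadjusted edgeR p under 0.05, for which the share of all genes is not given. Single libraries added calls. Without KG-1a untreated 24 h replicate B, CD33 also differed under 8CA at 24 h (1.57, edgeR adjusted p = 0.0167), without KG-1a 8AA 8 h replicate A so did CD38 under 8AA at 8 h (1.52, edgeR adjusted p = 0.0325), and without KG-1a 8AA 24 h replicate A so did ITGA4 under 8AA at 24 h (-0.21, edgeR adjusted p = 0.0348). KIT had differences of 0.56 (95% interval 0.05 to 1.08) under 8CA and 0.43 (-0.06 to 0.93) under 8AA at 24 h, which did not pass.

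Some responses changed between 8 h and 24 h. In MV4-11 3 of 6 genes did so under 8CA (16.3% of all genes) and 2 under 8AA (4.63%), and in KG-1a 1 of 8 under 8CA (23.9%) and 4 under 8AA (18.3%). CD44 in MV4-11 responded more at 24 h under 8CA (0.42, SE 0.056, edgeR adjusted p = 0.000147), and CD34 in KG-1a went from 0.03 at 8 h to -0.31 at 24 h under 8CA (difference -0.34, SE 0.079, edgeR adjusted p = 0.00542). Both held without any 1 library, and each of the other 8 calls was lost without some single library. Time in culture moved 1 gene in each untreated line, where 5.54% of the MV4-11 genes and 4.45% of the KG-1a genes passed the test. CD44 rose by 0.19 in MV4-11 (edgeR adjusted p = 0.0108) and CD38 by 0.93 in KG-1a (edgeR adjusted p = 0.00739). The CD44 call was lost without any 1 of the 4 untreated MV4-11 libraries (edgeR adjusted p = 0.0517 to 0.101), and that of CD38 without 24 h replicate A (0.0871), 24 h replicate B (0.0605) or 8 h replicate B (0.104).

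Ligands of these receptors were scarce and their binding partners moved. CXCL12, the CXCR4 ligand, was at 0 in all 24 libraries. KITLG, which encodes stem cell factor, was at 0 in each KG-1a library and at no more than 13 counts in MV4-11, with no call. ITGB1, which pairs with ITGA4 in VLA-4, fell in both lines at 24 h. In KG-1a it went from 217 and 204 CPM to 151 and 160.0 under 8CA (log2 fold change -0.44, edgeR adjusted p = 2e-06) and 168 and 170.3 under 8AA (-0.32, edgeR adjusted p = 3.6e-05), and in MV4-11 it fell by 0.24 under 8CA and 0.20 under 8AA on the log2 scale. The MV4-11 8AA call was lost without untreated replicate A (edgeR adjusted p = 0.0562), untreated replicate B (0.0508) or 8AA replicate B (0.0677).

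ITGB7, the other partner of ITGA4, rose in MV4-11 from 31.2 and 28.7 CPM at 24 h to 39.4 and 42.0 under 8CA (0.44, edgeR adjusted p = 0.00066) and 53.9 and 57.4 under 8AA (0.89, edgeR adjusted p = 3.9e-06). Its treated libraries in MV4-11 were all above the untreated ones. In KG-1a at 24 h ITGB7 rose under 8AA (0.23, edgeR adjusted p = 0.0237) and was not called under 8CA (0.19, edgeR adjusted p = 0.0754). CSF2RB, the signalling chain shared by the interleukin-3 receptor, rose in MV4-11 by 0.36 under each drug at 24 h (edgeR adjusted p = 0.00016 and 0.00039), from 69.2 and 67.2 CPM to 87.2 and 88.3 under 8CA and 86.2 and 88.6 under 8AA, and was at no more than 34 counts in KG-1a.

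Other stem cell surface markers, in a list of 20 genes, gave 3 higher and 4 lower of 12 tested in MV4-11 under 8CA at 24 h, and 4 higher and 1 lower under 8AA, where 21.2% and 22.7%, and 13.9% and 15.3%, of all genes were called. In KG-1a they gave 1 higher and 5 lower of 14 under 8CA (23.4% and 24.0% of all genes) and 6 higher and 3 lower under 8AA (25.4% and 26.6%), with medians of -0.06 and 0.22 against all-gene medians near 0. In MV4-11 HAVCR2 (TIM-3) rose by 0.95 under 8CA and 0.81 under 8AA, and CSF3R, the G-CSF receptor, by 0.58 under 8AA. The tetraspanin CD82 fell by 0.56 under 8CA in MV4-11 and rose by 0.76 under 8AA in KG-1a. CD52 rose by 0.94 under 8AA in KG-1a, and the activation marker CD69 fell by 0.64. Of these, the HAVCR2 call under 8AA was lost without untreated replicate B (edgeR adjusted p = 0.0530) or 8AA replicate B (0.0613).

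The list of 23 homing and adhesion genes had calls in both directions. At 24 h in MV4-11 it gave 3 higher and 5 lower of 16 under 8CA (21.2% and 22.7% of all genes) and 5 higher and 6 lower under 8AA (13.9% and 15.3%). In KG-1a it gave 5 higher and 6 lower of 20 under 8CA (23.4% and 24.0%) and 3 higher and 6 lower under 8AA (25.4% and 26.6%). ICAM1, a ligand of leukocyte integrins, rose by 0.92 in KG-1a under 8CA, from 26.7 and 25.7 to 48.6 and 50.7 CPM, and by 0.22 under 8AA (edgeR adjusted p = 0.0249), whereas in MV4-11 it fell by 0.53 under 8AA (edgeR adjusted p = 0.00812). DPP4, the protease that cleaves CXCL12, rose by 0.56 under 8AA in MV4-11, and in KG-1a, at no more than 42 counts, it fell by 1.17 under 8CA (edgeR adjusted p = 0.00265) and by 0.66 under 8AA (0.0397). ITGAM was at 0.74 under 8AA in MV4-11, a call lost without untreated replicate A (edgeR adjusted p = 0.0841) or 8AA replicate A (0.118). PECAM1 fell by 0.60 under 8CA in KG-1a, a call lost without untreated replicate A (0.0705) or 8CA replicate A (0.0604).

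Among 27 receptor partners and signal transducers, 7 rose and 5 fell of 22 under 8CA (21.2% and 22.7% of all genes) and 6 rose and 3 fell under 8AA (13.9% and 15.3%) in MV4-11 at 24 h. In KG-1a 8 rose and 8 fell of 23 under 8CA (23.4% and 24.0%) and 9 rose and 3 fell under 8AA (25.4% and 26.6%). GAB2, an adaptor of cytokine receptors, rose in all 4 cases. It went from 119 and 117 CPM in untreated MV4-11 to 194 and 194 under 8CA (0.72) and from 19.0 and 19.9 in untreated KG-1a to 52.7 and 47.5 (1.37). STAT5A rose by 0.54 and 0.36 and JAK2 by 0.36 and 0.40 in MV4-11 under 8CA and 8AA. PIK3CG rose in KG-1a by 0.42 under 8CA and 0.67 under 8AA. In MV4-11 it fell by 0.20 under 8CA (edgeR adjusted p = 0.0265) and was not called under 8AA (-0.11, edgeR adjusted p = 0.236). RGS2, a brake on G protein signalling, fell by 0.58 under 8CA in KG-1a, a call lost without untreated replicate B (edgeR adjusted p = 0.0929) or 8CA replicate B (0.108).

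Genes whose levels varied most like each member were ranked by Pearson's r over 12 group means, centred within each line, among 11484 other genes tested in both lines. The points share libraries and depth, and the values are a description. CD44 was followed by HACE1 (r = 0.982), NBAS (0.956) and ZNF117 (0.949). For CXCR4 they were TMEM107 (0.976), RNASEK-C17orf49 (0.956) and TP53INP2 (0.948), and for KIT DUSP22 (0.942), UFC1 (0.931) and NBPF1 (0.929). CD38 was nearest to SMARCA2 (0.951), GSE1 (0.946) and PSMG3-AS1 (0.945), ITGA4 to SYK (0.945), MARCKSL1 (0.932) and TRIP10 (0.926), and CD33 to MINK1 (0.913), ADCY4 (0.897) and ST6GAL1 (0.885).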

How the data were processed

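The authors deposited raw read counts per gene for 24 libraries, with gene length as a second value column, and 0 further sample columns were left out. Per the labels, RNA came from MV4-11 or KG-1a cells. The submitters' processing notes name Trimmomatic, STAR 2.6.0, HTSeq 0.11.1 and edgeR, and the builds hg19 and hg38, without saying which was used. Deposited gene starts matched GRCh38.p14 within 1000 bases for 3.66% of 21885 genes, so promoters were read from RefSeq by gene symbol, and no deposited coordinates are given.

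Counts were filtered with filterByExpr (minimum count 10), scaled by TMM and fitted with edgeR 4.0.16 (R 4.3.3), one coefficient per group. Each line was fitted over its 12 libraries (12800 genes in MV4-11, 12711 in KG-1a), and comparisons between lines over all 24 (14055 genes). Quasi-likelihood p-values were adjusted by Benjamini-Hochberg over all genes tested, with calls at 0.05. CPM are TMM-scaled within a line, and CPM per kilobase of exons are TMM-scaled over all 24 libraries. The script was tested on simulated counts.

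The filter left 8 of the 9 genes in KG-1a and 6 in MV4-11. The genes and lists were chosen with earlier results of these data known. From each list the text names, in each line, the 3 tested genes with the largest absolute log2 fold change at 24 h and a mean of at least 1 log2 CPM, and, whatever their values, KITLG, CXCL12, CSF2RB, ITGB1 and ITGB7. Alternatives were other scalings (library size, upper quartile, DESeq2 size factors), other filters, DESeq2 1.42.0, other sets of libraries, a replicate block, a fold threshold and leaving out each library.

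The depth was 18633963 to 24520078 reads per library. At 0 counts in a library, the upper limit is about 0.15 CPM, for counting error only. CERKL, which overlaps ITGA4 on the other strand, held at most 20 counts. MIR1244-2, listed with a span on chromosome 2 far longer than its exons that takes in CXCR4 and ITGA4, held at most 288. Whether counting used strand is not given in the sources used here.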

Additional observations from a re-analysis of the deposited data

Results flagged for a closer look

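Responses to a drug that differed between the lines or between 8 h and 24 h, by a test of the difference itself, are listed here with the libraries on which they rest. All are differences of log2 fold changes from edgeR's quasi-likelihood fits, with adjusted p over all genes.

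Between the lines, as MV4-11 minus KG-1a, the CD44 response differed by 0.33 under 8AA at 8 h (edgeR adjusted p = 0.00016), by 0.58 under 8CA at 24 h (edgeR adjusted p = 3.4e-08) and by 0.35 under 8AA at 24 h (edgeR adjusted p = 1.96e-05). That of CXCR4, the chemokine receptor, differed by -1.23 under 8AA at 24 h (edgeR adjusted p = 2.03e-07). CXCR4 was raised from 5.75 and 4.95 to 13.5 and 12.9 CPM in KG-1a, while in MV4-11 it was at 103 and 101 CPM untreated and 102 and 110.5 under 8AA.

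In MV4-11, as 24 h minus 8 h, the response of CD44 differed by 0.42 under 8CA (edgeR adjusted p = 0.000147) and by 0.27 under 8AA (edgeR adjusted p = 0.0138), and that of CD33 by 0.30 under 8CA (edgeR adjusted p = 0.0153) and by 0.32 under 8AA (edgeR adjusted p = 0.0276). CXCR4 differed by -0.29 under 8CA (edgeR adjusted p = 0.0168). The 8AA call of CD44 was lost without 8AA 8 h replicate B (edgeR adjusted p = 0.0515) or untreated 24 h replicate B (0.0674), and the 8CA call of CD33 without 8CA 24 h replicate A (0.0816) or untreated 24 h replicate B (0.0790). The 8AA call of CD33 was lost without any 1 of the 8 libraries it compares other than untreated 24 h replicate A (edgeR adjusted p = 0.0576 to 0.156), and in the fit of all 24 libraries (0.0514). The CXCR4 call was lost without 8CA 24 h replicate A (0.0608) or B (0.0513), 8CA 8 h replicate B (0.0806), untreated 24 h replicate A (0.0725) or untreated 8 h replicate A (0.0622).

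In KG-1a the CD34 response differed by -0.34 under 8CA (edgeR adjusted p = 0.00542). Under 8AA, CD38 differed by 0.86 (edgeR adjusted p = 0.0277), PROM1 by 0.84 (edgeR adjusted p = 0.04998), CXCR4 by 0.68 (edgeR adjusted p = 0.0183) and CD44 by 0.23 (edgeR adjusted p = 0.00919). PROM1 was lost without any 1 of 7 of the 8 libraries compared (edgeR adjusted p = 0.0635 to 0.200), in the fit of all 24 libraries (0.0634), with the replicate block (0.0509) and with DESeq2 (0.209). CXCR4 was lost without 8AA 8 h replicate A (0.0591), untreated 24 h replicate B (0.0872) or untreated 8 h replicate B (0.119) and with DESeq2 (0.0852), and CD44 without 8AA 8 h replicate B (0.0504) or untreated 24 h replicate A (0.0709). CD38 was lost without 8AA 8 h replicate B (0.161), untreated 24 h replicate A (0.0556) or B (0.0844), or untreated 8 h replicate A (0.126). Untreated CD38 itself was higher at 24 h than at 8 h in KG-1a (0.93, edgeR adjusted p = 0.00739).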

How the results depend on the processing

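No called log2 fold change of the 8 genes changed sign under any alternative run, and the limits lie in the calls. With 2 libraries per group, the counts of called genes moved when 1 library was left out, from 1 to between 0 and 1 for 8CA and from 2 to between 1 and 2 for 8AA in MV4-11 at 8 h, from 6 to between 3 and 5 for 8CA and from 4 to between 2 and 4 for 8AA at 24 h. In KG-1a they moved from 5 to between 3 and 5 for 8AA at 8 h and from 6 to between 3 and 5 between the drugs at 24 h. For the line differences, 8AA at 8 h and 8CA at 24 h moved from 1 to between 1 and 2. Response differences between times moved from 3 to between 1 and 3 (8CA) and from 2 to between 0 and 2 (8AA) in MV4-11 and from 4 to between 1 and 5 for 8AA in KG-1a. Culture time moved from 1 to 0 in MV4-11 and from 1 to between 0 and 1 in KG-1a. The lone sample left in a group is assumed to vary like the other groups. The low counts of CD38 in MV4-11 and of CD33 and PROM1 in KG-1a limit what can be seen.

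When a log2 fold change of 1 or more in size was also asked for, counts fell to 1 for MV4-11 8CA at 24 h, 2 for MV4-11 8AA at 24 h, 1 for KG-1a 8AA at 24 h, 1 between the drugs in KG-1a at 24 h and 1 for the 8AA line difference at 24 h. They fell to 0 in the other treatment, drug, line, time and culture comparisons that had calls, apart from the untreated lines, which had 6 at each time. MV4-11 8CA at 8 h gave 2 with DESeq2 size factors, with no filter, with the DESeq2 test and with the replicate block. DESeq2 gave 3 between the drugs in KG-1a at 24 h and 2 for the KG-1a 8AA time difference. At least 10 counts in every library left 4 and 3 calls between the untreated lines at 8 h and 24 h, as fewer genes were tested. That filter and no filter gave 2 for the 8AA line difference at 8 h. Untreated KG-1a over time gave 2 under library size, upper quartile, no filter and the stricter filter. A fit of 6 libraries gave 1 for KG-1a 8CA at 8 h, and a fit of all 24 gave 1 for the MV4-11 8AA time difference. The cause was not tested. The shares of all genes called under these alternatives are not given, so these counts describe the genes of this report alone.

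Nothing in the labels ties libraries of the same letter, and with 2 letters the correlations cannot settle whether they pair, so the block is an alternative here. The correlations of A minus B deviations between groups ran from -0.12 to 0.16 in MV4-11 and from -0.085 to 0.16 in KG-1a, above 0.1 in 6 and 2 of 15 pairs of groups. In MV4-11 all 3 pairs of 8 h groups were above 0.1 (0.13 to 0.16). With the replicate block, 2 genes were called in MV4-11 under 8CA at 8 h (ITGA4 added), 1 between the drugs in MV4-11 at 8 h (CD44) and 3 in untreated KG-1a over time (CD34 and CD44 added). It also added ITGA4 in KG-1a under 8AA at 24 h and ended the PROM1 time difference under 8AA in KG-1a.

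Scaling by library size alone moved the median log2 fold change of all genes in KG-1a under 8AA at 24 h to 0.11, and between the untreated lines at 24 h to -0.11. It moved the share of lower calls among all called genes from 51.2% to 35.5% there, from 51.9% to 41.8% under 8AA at 8 h, and in MV4-11 from 55.8% to 38.3% (8CA, 8 h), 53.4% to 38.8% (8AA, 8 h), 51.8% to 41.1% (8CA, 24 h) and 52.4% to 36.2% (8AA, 24 h). Upper-quartile scaling gave 38.8%, 41.6%, 38.1% and 40.1% for KG-1a 8AA at 24 h and MV4-11 8CA at 8 h, 8AA at 8 h and 8AA at 24 h.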
